A study of Rattus norvegicus with 5 samples.

Results

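The cytosolic ribosomal protein genes were taken as every rat gene whose symbol begins with Rpl, Rps or Rplp and a number, with at most 1 of the letters a, x, y or l after it, and that is not an Rps6k kinase gene. The array files carry RefSeq accessions, and through these 73 such genes were found among 15069 named genes, 28 of the small subunit and 45 of the large subunit. They were read by 129 probes: 30 genes had 1 probe, and 43 had several, up to 4. The RefSeq table holds 78 genes of this pattern, and the other 5 were not matched to a probe here.

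The series asks how Tmub1, a membrane protein with a ubiquitin-like domain, changes gene expression in a liver cell line. BRL-3A, a line from Buffalo rat liver that the labels call hepatocytes, was measured in 5 groups on one-colour Agilent arrays, 1 array each. The groups were a lentivirus for Tmub1 overexpression, a lentivirus for Tmub1 knockdown, a negative control lentivirus for each of the pair, and normal cells without virus. RNA was taken 48 h after transduction, and 1 µg was labelled with Cy3. With 1 array a group there were no replicates, so no difference below could be set against replicate spread and no p-value is given. A level is the log2 processed signal minus the 75th percentile of its array. Where a gene had several probes, the brightest by mean level stands for it. A call, higher or lower, needed a brighter value that the scanner software marked as well above background and a difference of at least 2.5-fold, which is 1.32 on the log2 scale. The scanner software's own error for a ribosomal protein gene's log2 difference had a median of 0.20 and covers the reading of the spots only.

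Ribosomal proteins build the particle that makes all cytosolic protein: the small subunit decodes the mRNA, and the large subunit joins amino acids and lets the growing chain out through a tunnel. Their genes are transcribed strongly in growing cells. Their mRNAs belong to the terminal oligopyrimidine (TOP) class, which begins with a cytosine followed by further pyrimidines and is translated under control of the kinase mTOR and the RNA-binding protein Larp1. Several of these proteins also act outside the ribosome, among them Rpl5 and Rpl11, which bind the ubiquitin ligase Mdm2 when ribosome assembly fails and so let p53 accumulate.

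The sequence around the start sites was looked at first, because the pyrimidine run is the feature that TOP mRNAs share. RefSeq promoter sequences (build GRCr8) were found for 59 of the 73 genes. In the window from 40 bases before to 20 bases after the annotated start, 46 of 59 (78.0%) held an unbroken run of at least 8 C or T on the sense strand, against 7987 of 33469 promoters in the whole table (23.9%). The motif CTTTC was on the sense strand of 49.2% of the members and of 7.80% of all promoters. On the antisense strand, the shares were 1.69% and 7.41%. It consists of pyrimidines itself, so it can lie inside a run. The windows of some genes at the ends of the knockdown comparison, and of Rpl3l, are shown 5′ to 3′, with runs of 8 or more pyrimidines in capitals.

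Rps28, the lowest gene with knockdown, chr7:15311314-15311373, minus strand: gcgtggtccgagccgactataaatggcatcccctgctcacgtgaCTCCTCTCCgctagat
Rps27, chr2:177964587-177964646, minus strand: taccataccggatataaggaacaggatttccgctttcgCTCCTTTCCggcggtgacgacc
Rpl31, chr9:49143071-49143130, plus strand: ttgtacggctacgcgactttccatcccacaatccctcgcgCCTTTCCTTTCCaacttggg
Rps4x, chrX:71342902-71342961, minus strand: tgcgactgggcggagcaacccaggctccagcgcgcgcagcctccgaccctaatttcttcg
Rpl5, the highest gene with knockdown, chr14:1995206-1995265, minus strand: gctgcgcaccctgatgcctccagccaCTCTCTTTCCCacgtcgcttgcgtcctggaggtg
Rpl3l, chr10:14258406-14258465, plus strand: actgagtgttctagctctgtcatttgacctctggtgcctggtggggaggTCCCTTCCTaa

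The run stood in Rps28, Rps27 and Rpl31 and in Rpl5 alike, so it was present at both ends of the knockdown comparison. It was also absent at both ends, from Rps4x on the high side and from Rpl36a, at -1.68, on the low side. The median log2 difference between knockdown and its control was -0.98 for the 46 genes with a run and -1.13 for the 13 without. The ranges were -1.78 to 0.83 and -1.68 to 0.54. A match describes the letters at any place in this window, so a run need not lie at the start as in a TOP mRNA. The annotated start may also not be the start that BRL-3A cells use.

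All 73 genes were well above background on all 5 arrays. Their signal was strong: the probes of 69 genes lay in the top 5% of named genes by mean level, and those of 71 in the top 10%, which describes probe brightness and not amounts of mRNA. No spot was saturated. The highest raw signal on any array was 291907, against saturation values of 778150 on the normal array and 778202 on the other arrays. The median level of the 73 genes was 6.87 on the overexpression array, 5.52 on the knockdown array, 7.04 in the overexpression control, 6.58 in the knockdown control and 6.45 in normal cells. The knockdown array was thus lowest, and 63 of 73 genes had their lowest level there. The overexpression control was highest, with 57 of 73 genes at their highest level. In 55 genes, these levels put the 4 transduced arrays in 1 order, from overexpression control through overexpression and knockdown control down to knockdown. After cyclic loess, a scaling described below, 38 of 73 genes were lower with overexpression than in its control. With knockdown, 38 were likewise below its control. Neither this order nor a lowest level on the knockdown array could thus hold in more than 38 genes after loess.

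**Figure D1:**
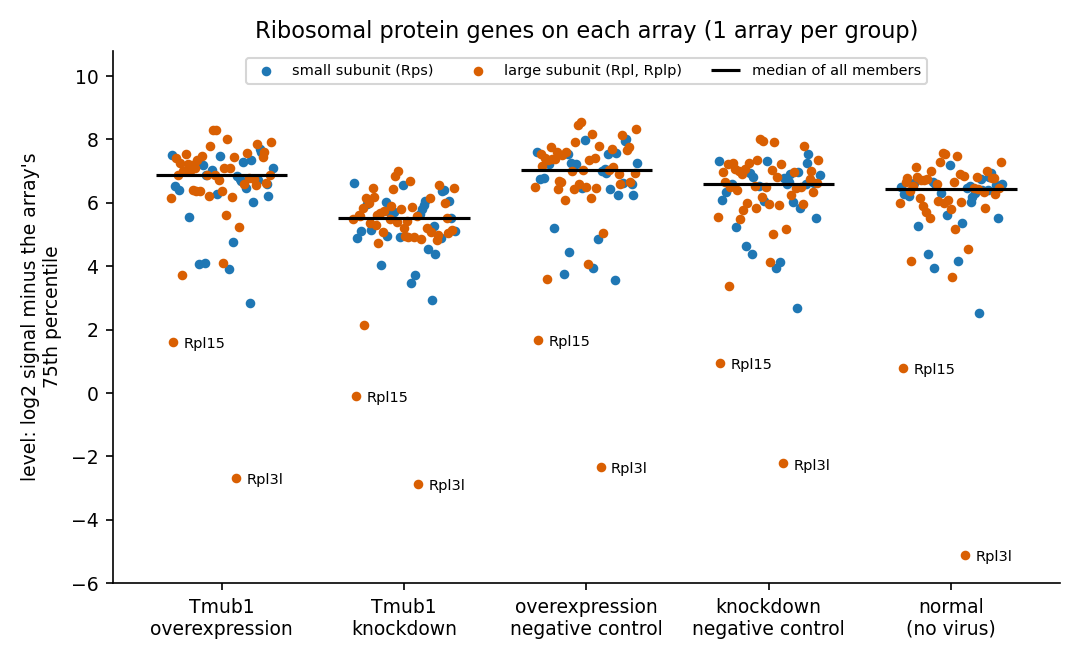
Level of each of the 73 ribosomal protein genes (y axis, log2 signal minus the 75th percentile of the array) on the 5 arrays, 1 point per gene. Bars mark medians, from 5.52 on the knockdown array to 7.04 in the overexpression control, and Rpl15 and Rpl3l lie below the other genes on every array.

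The scale on which these levels stand differed between arrays. The 75th percentile itself was 9.38 on the overexpression array, 10.47 on the knockdown array, 9.12 in the overexpression control, 9.42 in the knockdown control and 10.39 in normal cells. Before scaling, the median log2 signal of the 73 genes was 16.25, 15.99, 16.16, 16.01 and 16.84 in that order. The 2 arrays with the highest 75th percentile were therefore those on which the genes stood lowest after scaling. The part of this in the results below was not tested. The median of the 73 genes in each comparison is given under other scalings too. Other levels and differences are on the 75th percentile scale unless another scaling is named.

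Across the series, probes well above background made up 66.9% to 86.5% of an array's probes. Tmub1 had a level of -1.42 with knockdown and of 0.44 with overexpression, against 0.37 and 0.45 in the overexpression and knockdown controls and 0.08 in normal cells. It was thus lower on the knockdown array and not visibly higher on the overexpression array. Of 12 hepatocyte markers, 7 to 9 were well above background on each array. Albumin (Alb), Ttr and Apoa1 were so on 2 of 5 arrays each, and Cps1 and Tat on none. All 6 stellate cell and fibroblast markers were well above background on every array, with median levels from 4.19 to 5.45. The normal array was scanned on a different day from the 4 transduced arrays, so scan day and group cannot be told apart in comparisons with normal cells. Among genes called with knockdown, 45.9% were higher on the main scale. That share was 50.4% after quantile normalization, 55.6% after cyclic loess, 71.3% with the percentile taken over probes above background, 34.1% with normexp and 96.7% with no scaling.

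Knockdown was compared with its own negative control to see which ribosomal protein genes differ when Tmub1 mRNA is low. On the 75th percentile scale, 16 of 73 genes were called lower and 0 higher, 5 of the small subunit and 11 of the large subunit. Of all 12636 genes that could be called, 18.7% were called in either direction, 8.56% higher and 10.1% lower. The median of the 73 genes was -0.96, against -0.23 for all named genes, and 67 of 73 lay below 0. After cyclic loess, which lets the scaling depend on signal strength, the median was -0.04, with 1 gene called higher and 0 lower, against 9.16% and 7.32% of all genes. Quantile normalization gave -0.13, with 1 gene higher and 0 lower against 8.95% and 8.82% of all genes. The authors' deposited table gave -0.13, with 1 higher and 0 lower against 9.30% and 8.13%. Its member median equalled that of quantile normalization in every comparison, so it may not be a separate scaling. Normexp background correction, scaled by the 75th percentile too, gave -0.95, against -0.59 for all named genes. It had 0 genes higher and 13 lower, against 4.12% and 7.94% of all genes. The shift of the group as a whole thus changed with the scaling, while the spread among its genes kept its size: the SD over the 73 genes was 0.55 on the main scale, 0.55 after quantile normalization and 0.53 after loess.

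Other genes in the top 5% by mean level had a similar median, though they were not matched to the group in brightness. The genes of that top 5% had a mean level of 4.84, against array medians of 5.52 to 7.04 for the 73 genes. In the top 5% of named genes by mean level, the median difference with knockdown was -0.96 for the 69 ribosomal protein genes and -0.90 for the 685 other genes, whose middle 50% ran from -1.31 to -0.43. Over all named genes in 20 bins of mean level, the medians lay between -0.07 and 0.07 in the bins from -5.54 to -0.38 and lay lower above them, down to -0.90 in the brightest. The difference of the group from all genes, -0.72, was therefore shared by other strongly hybridising genes.

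**Figure D2:**
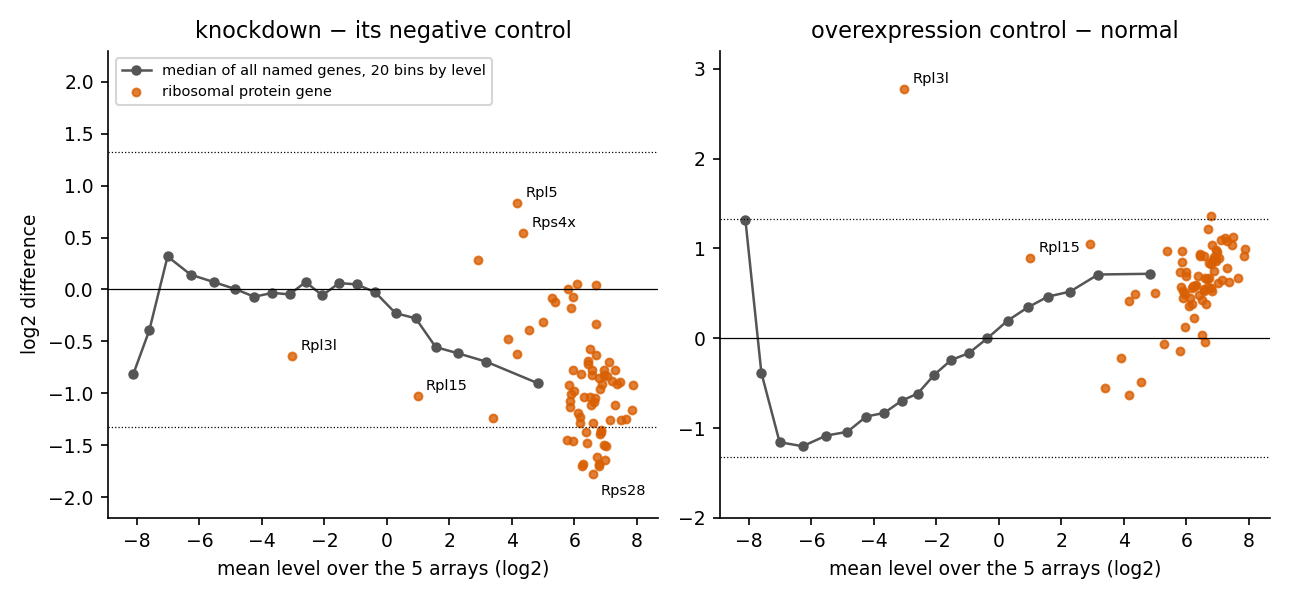
Log2 difference (y axis) against mean level over the 5 arrays (x axis, log2) for the 73 ribosomal protein genes (orange) and for all named genes as medians of 20 bins (grey), for knockdown minus its control on the left and the overexpression control minus normal cells on the right. Most ribosomal protein genes lie at higher levels than the last point of the grey line. That point is at a level of 4.84, with -0.90 on the left and 0.72 on the right. Rpl5, Rps4x and Rpl3l lie away from the line.

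The lowest genes with knockdown were small-subunit and large-subunit proteins alike. Rps28, a small protein at the mRNA exit, had levels of 7.11 on the overexpression array, 5.10 on the knockdown array, 7.26 in the overexpression control, 6.88 in the knockdown control and 6.60 in normal cells. The knockdown array stood apart below the other arrays, by -1.78 from its own control (3.43-fold). Rps27, which carries a zinc finger, had levels of 7.35, 5.28, 7.58, 6.97 and 6.75 in the same order, a difference of -1.70. Rps10, one of the proteins mutated in Diamond-Blackfan anaemia, stood at 6.73, 4.90, 6.64, 6.60 and 6.41, also -1.70 from its control. For these genes the knockdown array lay below every other array, where on this scale 63 of 73 genes had their lowest level.

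Rpl31, Rpl36a, Rpl39 and Rpl36 of the large subunit followed with -1.68, -1.68, -1.64 and -1.61. Rpl39 lines the exit tunnel. Then came Rpl38, Rpl23 and Rpl18 with -1.51, -1.50 and -1.48. Rps19 and Rps27a had -1.46 and -1.45, and Rpl34, Rpl13, Rpl24 and Rpl30 between -1.39 and -1.35. After cyclic loess these called genes remained on the low side of the group, from -0.84 for Rps28 to -0.36 for Rpl30, but none was past 2.5-fold. Rpl15 and Rpl7a, whose main differences of -1.03 and -1.24 were not called, also stood at -0.82 and -0.74 after loess.

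At the other end stood Rpl5 and Rps4x. Rpl5, which carries the smallest large-subunit rRNA into the ribosome, had levels of 4.10 on the overexpression array, 4.95 on the knockdown array, 4.06 in the overexpression control, 4.12 in the knockdown control and 3.65 in normal cells. The knockdown array was the highest of all 5 for this gene, 0.83 above its control (1.78-fold, not called on this scale). The difference was 1.58 after quantile normalization, 1.57 after loess and 1.60 in the authors' deposited table, past the threshold under each. Rps4x, the X-linked form of a small-subunit protein, had levels of 4.10, 4.94, 4.44, 4.39 and 3.94 in the same order. Its difference was 0.54 on the main scale and 1.30 after loess, just under the threshold. These were the 2 genes of the group whose highest level was on the knockdown array.

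Next to them lay Rps26 with 0.28, Rpl27a with 0.05, Rpl3 with 0.04 and Rps6 with 0.00, and after loess with 0.80, 1.00, 1.06 and 0.91. Rpl3 sits at the peptidyl transferase centre, and Rps6 is the substrate of S6 kinase. Rpl4, whose loop reaches into the exit tunnel, was at -0.07 and 0.84. Rpl17, which lies at the tunnel's outlet, was at -0.31 and 0.50, and Rpl39 at -1.64 and -0.65. The 4 proteins listed for the active site and tunnel thus ran from the low to the high side of the group.

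**Figure D3:**
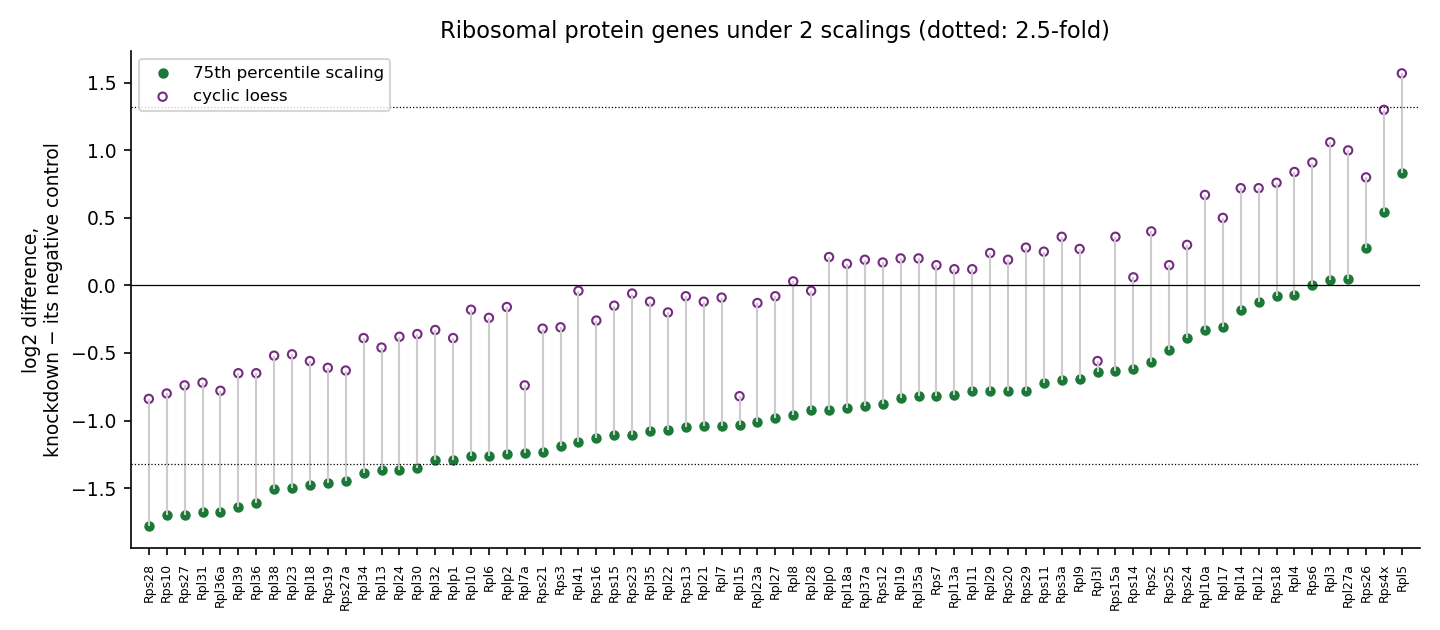
Log2 difference between knockdown and its negative control (y axis) for the ribosomal protein genes named on the x axis, ordered by the value under 75th percentile scaling (filled) and shown again after cyclic loess (open), with dotted lines at 2.5-fold. Every gene shown is higher under loess, from Rps28 at -1.78 and -0.84 to Rpl5 at 0.83 and 1.57, and Rpl7a, Rpl15 and Rpl3l move up less than their neighbours.

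The proteins that bind Mdm2 did not move together. Rpl11, the partner of Rpl5, had levels of 6.37 on the overexpression array, 5.20 on the knockdown array, 6.50 in the overexpression control, 5.98 in the knockdown control and 5.81 in normal cells. The knockdown array was lowest for Rpl11 and highest for Rpl5, with differences of -0.78 and 0.83, and of 0.12 and 1.57 after loess. Rpl23 and Rps7, which also bind Mdm2, stood at -1.50 and -0.82, and after loess at -0.51 and 0.15. Of the 4 measured genes on this list 1 was called lower (Rpl23) and 0 higher, where all genes had 8.56% higher and 10.1% lower. After loess 1 was called higher (Rpl5) and 0 lower, against 9.16% and 7.32% of all genes.

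The genes of the acidic stalk, which recruits the elongation factors, lay closer together than those that bind Mdm2. Rplp0, its base, had levels of 8.30, 7.02, 8.54, 7.94 and 7.54 in the order overexpression, knockdown, overexpression control, knockdown control and normal. Rplp1 had 6.62, 5.04, 6.65, 6.33 and 6.27, and Rplp2 8.0, 6.68, 8.16, 7.93 and 7.49. All 3 were lowest with knockdown, by -0.92, -1.29 and -1.25, and none was called. After loess they were at 0.21, -0.39 and -0.16, so of both signs.

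Of the 9 genes listed for Diamond-Blackfan anaemia, an inherited failure of red cell production, 2 were called lower with knockdown (Rps10 and Rps19) and 0 higher, a share of 22.2% against 18.7% of all genes in either direction and 10.1% lower. Rps7, Rpl35a and Rpl11 lay between -0.82 and -0.78, Rps24 at -0.39, and Rps26 and Rpl5 above 0. At the mRNA entry and decoding site, Rps3, Rps23 and Rps2 were at -1.19, -1.11 and -0.57, and none was called. Rps27a, made as a fusion with ubiquitin, was called lower at -1.45.

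Several genes read differently by probe. Of the 43 genes with several probes, 35 had all probes below 0 with knockdown and 6 had probes of both signs. In 31 of 43 the brightest probe was lower than the dimmest, with medians of -1.01 and -0.59. In 8 genes the probes were over 1.0 apart. Rps19 read -1.46 by its brightest probe and -0.21 and -0.20 by its others. Rpl36a read -1.68, -0.82, -0.78 and -0.09 from the brightest to the dimmest probe. Rps3 read -1.19 and 0.14, Rpl7 -1.04 and 0.11, Rpl8 -0.96 and 0.08, Rpl27 -0.98 and 0.08, and Rpl22 -1.07 and -0.01. Ribosomal protein genes have many processed pseudogenes and near-identical copies, and which of them each probe can bind was not tested. Of the 16 genes called lower, 6 have a single probe (Rps28, Rps10, Rpl23, Rpl18, Rpl34 and Rpl13). Another 8 passed by their brightest probe only, namely Rps19, Rpl36a, Rps27, Rpl31, Rpl36, Rpl39, Rpl24 and Rpl30. A second probe was also past the threshold in the other 2, Rps27a (-1.56) and Rpl38 (-1.42). Rpl5 and Rps4x have a single probe too.

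Among other genes of translation, most proteins of the ribosome that the name pattern misses lay near the group's median, and Rack1 lay on its high side. Fau, made as a fusion with a ubiquitin-like protein, had a difference of -0.90 with knockdown, Rpsa -0.87 and Rpl22l1 -0.74, and Rack1 0.40. None of the 5 was called, against 18.7% of all genes. After loess the 4 named here were at 0.15, -0.29, 0.08 and 1.17. Of 14 measured elongation factors and other TOP mRNAs, 1 was called higher (Eif3l, 1.61) and 1 lower (Eif3h, -1.78), both initiation factor subunits. Both calls held after loess at 1.97 and -1.41. The share called was 14.3% on the main scale, against 18.7% of all genes. Eef1a1, the main elongation factor, was at -0.94, and Eef2, which moves the ribosome along the mRNA, at 1.23. After loess Eef1a1 was level with its control and Eef2 was at 1.85, past the threshold.

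Of 25 initiation factors, 2 were called higher (Eif2b1, 2.42, and Eif3b, 1.41) and 2 lower (Eif3a, -1.50, and Eif6, -1.37). After loess 4 were called higher and 0 lower, against 9.16% and 7.32% of all genes, and Eif3a and Eif6 were at -0.72 and -0.59. Mitochondrial ribosomal proteins, which serve the separate ribosome inside mitochondria, had 2 called higher and 4 lower of 63, or 9.52% against 18.7% of all genes. Their median was -0.28 on the main scale and -0.05 after loess. Mrps9 (2.15) and Mrps18b (1.53) were the higher ones.

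Of 55 measured ribosome biogenesis genes, 10 were called higher with knockdown and 2 lower, with a median of 0.18, against -0.23 for all named genes, and 33 of 55 lay above 0. Of all genes that could be called, 8.56% were higher and 10.1% lower. After loess the count was 10 higher and 0 lower, with a median of 0.38, where all genes had 9.16% and 7.32%. After quantile normalization it was 11 and 0, against 8.95% and 8.82% of all genes. With normexp it was 4 and 1, where 4.12% of all genes were called higher and 7.94% lower. Ncl, nucleolin, which binds nascent rRNA, had levels of 1.07 on the overexpression array, 3.84 on the knockdown array, 0.61 in the overexpression control, 1.25 in the knockdown control and 0.82 in normal cells. The knockdown array stood above the other arrays by at least as much as its difference of 2.59 from its own control. Wdr12, of the large-subunit assembly complex, had 2.49. Utp4 and Utp20, which process small-subunit rRNA, had 2.32 and 2.26. All 4 were above 2.00 after loess. The genes called lower were Fbl, an rRNA methyltransferase, and Pes1, a partner of Wdr12, at -1.39 and -1.34, and at -0.59 and -0.95 after loess.

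Of 13 genes of RNA polymerase I, the enzyme that transcribes rRNA, 5 were called higher with knockdown and 0 lower, on the main scale and after loess alike, where 8.56% and 9.16% of all genes were called higher. Polr1b, a core subunit, was 2.80 higher, and Polr1a, the largest subunit, 1.89. Rrn3, an initiation factor of the enzyme, was 2.14 higher, Taf1a 1.83 and Polr1e 1.58. With normexp 2 of the 13 were called higher, against 4.12% of all genes, and Taf1a was at -0.02. Among 12 mTOR and 4E-BP genes, Tsc1, an inhibitor of mTOR, was called higher (1.67), and Eif4ebp2, which represses cap-dependent initiation, lower (-1.90). That was 16.7% of the list, against 18.7% of all genes. With normexp Tsc1 was level with its control. Of the 7 Myc and p53 genes, Mycn (1.78) and Mdm4 (2.47) were called higher, and Mdm2 (-1.38), Cdkn1a (-1.70) and Max (-1.35) lower. That was 71.4% of this short list, against 18.7% of all genes. After loess Mdm2 was at -0.93, Cdkn1a at -1.01 and Max at -1.28, and none of these was past the threshold.

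**Figure D4:**
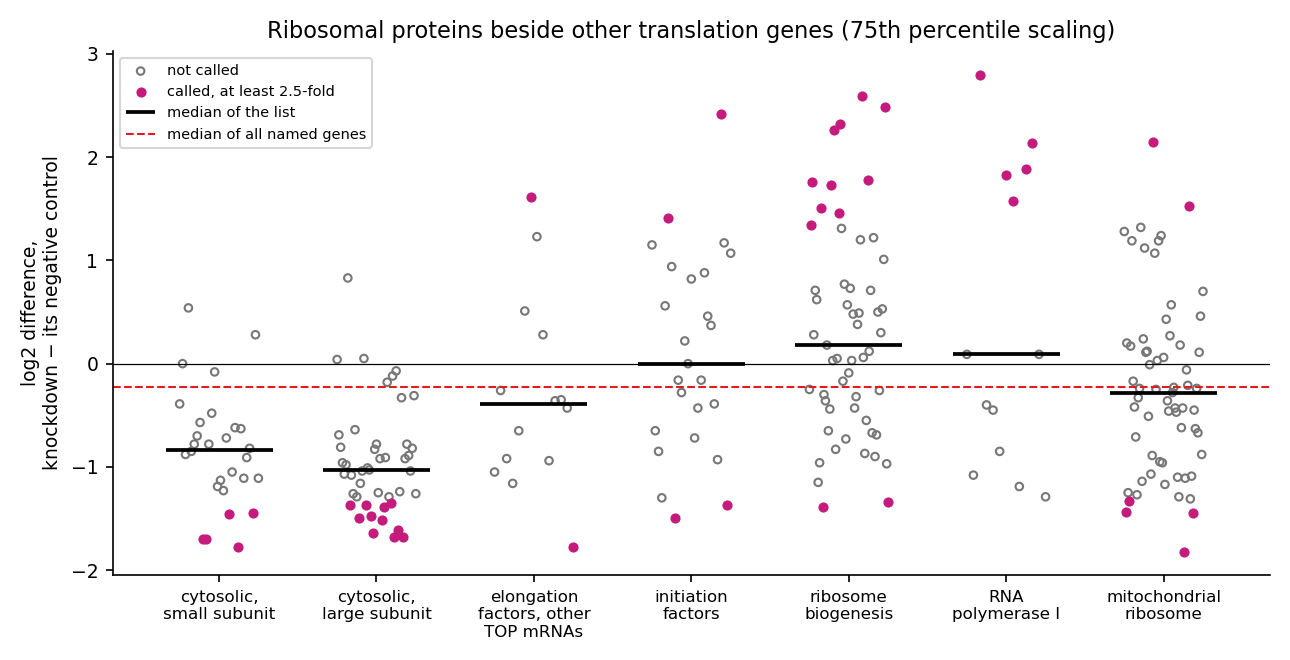
Log2 difference between knockdown and its negative control (y axis, 75th percentile scaling) for the 2 groups of cytosolic ribosomal proteins and 5 lists of other translation genes, 1 point per gene, with called genes filled and list medians as bars. The cytosolic subunits have medians of -0.84 and -1.03 and calls below 0 only. Ribosome biogenesis and RNA polymerase I have 10 of 55 and 5 of 13 genes called higher, against 8.56% of all genes.

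Overexpression was compared with its own negative control to see which ribosomal protein genes differ under the Tmub1 overexpression virus. None of the 73 genes was called, against 2.73% of 11721 genes that could be called, 1.72% higher and 1.01% lower. The median was -0.21, and 63 of 73 genes lay below 0. All named genes had -0.04, and the 685 other genes in the top 5% by mean level -0.11. After loess the median was -0.03 and after quantile normalization 0.00. The sign turned with the reference: the median was 0.28 against the knockdown control and 0.47 against normal cells.

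The lowest genes with overexpression were Rps26 at -0.75, Rpl12 at -0.53 and Rps29 at -0.51. Rps26 contacts the mRNA at the exit channel and had levels of 2.83 with overexpression and 3.58 in its control, against 2.67 in the knockdown control, so the overexpression array lay between the pair of controls. Rpl32, Rps18 and Rps14 were highest at 0.41, 0.35 and 0.32. The brightest probe of Rpl32 read 0.41 and its other probes -0.31 and -0.18. The stalk proteins Rplp0, Rplp1 and Rplp2 were at -0.24, -0.03 and -0.17, Rps6 at -0.04, and the Mdm2 partners Rpl5 and Rpl11 at 0.04 and -0.13. Among the active site and tunnel proteins, Rpl3 was at -0.39, Rpl4 at -0.35, Rpl39 at -0.36 and Rpl17 at 0.20. No ribosome biogenesis gene was called of 55, and Rrn3 (1.54) was the gene called higher of the 12 RNA polymerase I genes that could be called. The share over all genes was 2.73%.

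The pair of negative controls was compared to show how far 2 arrays of cells with a control virus differ. None of the 73 genes was called, against 8.62% of 11798 genes, 5.21% higher and 3.41% lower. The median, knockdown control minus overexpression control, was -0.51, and 66 of 73 lay below 0. It was -0.01 after loess and -0.06 after quantile normalization. On the same scale, the group's median was -0.21 with overexpression and -0.96 with knockdown, each against its own control. Rpl12 (-1.11), Rpl37a (-0.99) and Rpl3 (-0.96) were lowest. Rps14 was highest at 0.90, followed by Rpl32 at 0.22 and Rpl17 at 0.14. Rps14, which lines the small subunit's platform, had levels of 4.07 on the overexpression array, 4.03 on the knockdown array, 3.75 in the overexpression control, 4.65 in the knockdown control and 4.38 in normal cells. It was thus higher in the knockdown control than on any other array.

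The controls were also compared with normal cells, to show what differs after transduction with a control virus. The overexpression control had 2 of 73 genes called higher and 0 lower, against 17.6% of 13355 genes in either direction, 7.67% higher and 9.92% lower. The knockdown control had 1 called higher and 0 lower, against 16.6% of 13483 genes, 7.08% higher and 9.56% lower. The medians were 0.67 and 0.17, and those of all named genes -0.12 and -0.10. The other genes in the top 5% by mean level, not matched to the group in brightness, had 0.73 and 0.40. After loess the medians of the ribosomal protein genes were -0.05 and -0.03, and after quantile normalization 0.02 and -0.01.

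**Figure D5:**
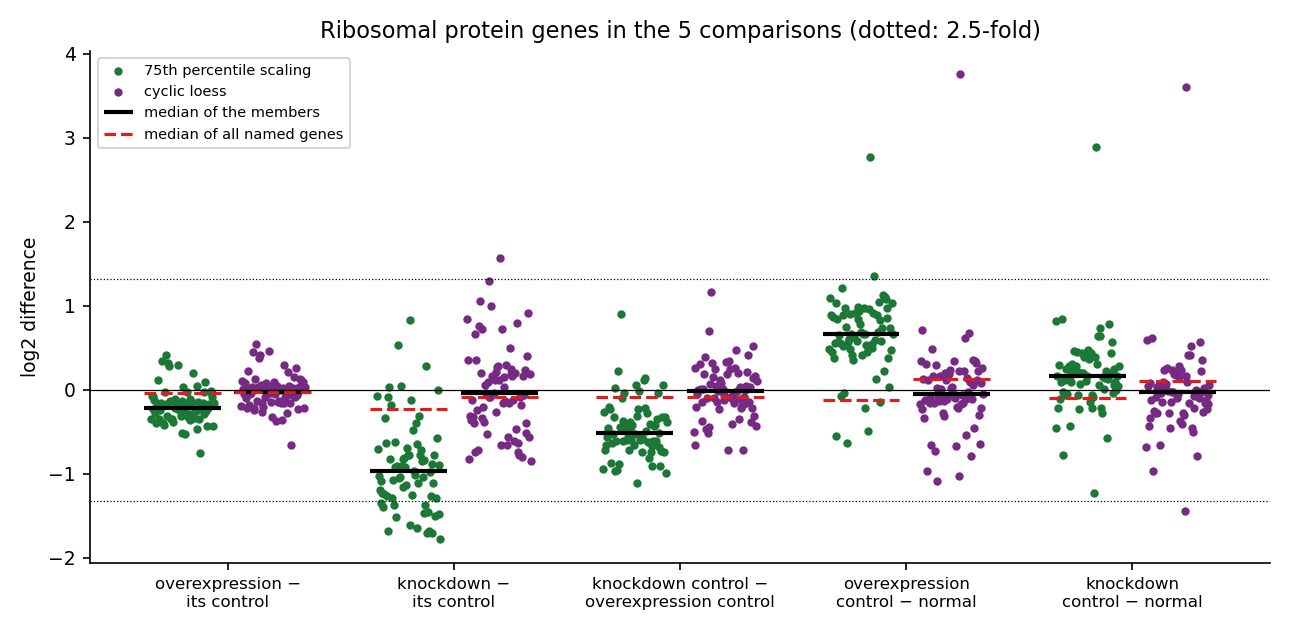
Log2 differences (y axis) of the 73 ribosomal protein genes in the 5 comparisons under 75th percentile scaling (green) and cyclic loess (purple), 1 point per gene, with medians of the members (black) and of all named genes (red, dashed). Member medians run from -0.96 to 0.67 under the first scaling and from -0.05 to -0.01 under the second, and the isolated high points against normal cells are Rpl3l at 2.77 to 3.76.

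Rpl3l, the paralog of Rpl3 that is known from skeletal and heart muscle, was called higher than normal in both controls. Its levels were -2.68 on the overexpression array, -2.86 on the knockdown array, -2.34 in the overexpression control, -2.22 in the knockdown control and -5.11 in normal cells. The 4 transduced arrays lay between -2.86 and -2.22, and the normal array was well below all of them. The differences were 2.77 (6.81-fold) and 2.89 (7.39-fold) for the overexpression and knockdown controls, and 2.43 and 2.25 for overexpression and knockdown. After loess the controls were 3.76 and 3.60 higher than normal. With normexp and an offset of 50, which is larger than the normal array's processed signal of 39, they were 1.12 and 1.06 and not called. Rpl3 itself was 1.21 and 0.26 higher than normal in the same comparisons, and 0.49 and 0.03 after loess.

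Some markers of blood-derived cells and of endothelium also differed between these arrays. Lyz2 and Ptprc of 4 macrophage and leukocyte markers, and Pecam1 of 4 endothelial markers, were not well above background on the normal array and were so on the 4 transduced arrays. The summed signal of the macrophage and leukocyte list was 1239 in normal cells and 3832 to 9841 on the transduced arrays, and that of the endothelial list 4761 and 944 to 3286. The median level of the macrophage and leukocyte list was -4.53 in normal cells and between -0.47 and -0.04 on the transduced arrays. That of the endothelial list was -2.53, against -2.18 to -1.56, and 2 of its 4 markers were above 0 and 2 below 0 in the knockdown control against normal cells. The part of these cells in the Rpl3l result was not tested. Rps4y2, a paralog of Rps4x that lies outside the name pattern, was likewise not well above background on the normal array, with a level of -7.61, and stood between -5.48 and -3.52 on the others.

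On the low side against normal cells, Rps24 had levels of 4.75 on the overexpression array, 3.73 on the knockdown array, 4.86 in the overexpression control, 4.12 in the knockdown control and 5.35 in normal cells. The normal array was the highest for Rps24. The knockdown control was -1.23 from normal, not called on the main scale, and -1.44 after loess and -1.35 after quantile normalization, past the threshold under both. Of all genes in this comparison, 3.18% were called lower after loess and 4.25% after quantile normalization. Rpl7a, Rps25 and Rps27a were also highest in normal cells. Rpl7a was at -0.55 and -0.78 in the overexpression and knockdown controls, and Rps27a at -0.14 and -0.57. On the main scale, 7 genes were higher than normal on all 4 transduced arrays, namely Rpl3, Rpl3l, Rpl5, Rpl17, Rps3a, Rps4x and Rps26. The knockdown array is among these 4, so this rule itself favours genes that are high with knockdown. After loess, the overexpression control was at -0.05 from normal for Rpl5 and -0.06 for Rpl17, and the knockdown control at -0.03 for Rps26. The remaining genes of the 7 stayed above normal in both controls.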

How the data were processed

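The deposited scanner files hold a processed signal (an intensity) for each spot, background-subtracted and detrended per the file headers, with no scaling between arrays. They name Agilent Feature Extraction 11.0.1.1, and the submitters' processing notes name 9.1. The authors' deposited table holds log2 values with a median of 6.685 in every column. They followed each array's own scanner log2 values with r of 0.990 to 0.999 over 30367 probes, and how the authors normalized them is not stated in the labels.

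Control spots and spots flagged as poor were left out, and replicate spots were averaged. A probe counted as well above background where all its spots were. Of 30367 probes, 18005 were named through RefSeq accessions (GRCr8), and 12362 stayed unnamed. A dimmer value below background was raised to the array's lowest value well above it. The p threshold of the series' design could not be applied with 1 array a group. The members and gene lists were chosen with earlier results of these data known. The text names called genes, up to 15 a comparison and direction (the 3 largest where under 5 were called), genes with a listed role, paralogs, up to 4 called genes of each other list, and probes over 1.0 apart. Other genes were named after their values were seen. Some genes are not reported here. Alternatives were quantile normalization and cyclic loess (limma 3.58.1, R 4.3.3), the 75th percentile over 19432 probes above background on all arrays, normexp on median pixel signals with an offset of 50, the authors' table, other probes, filters, thresholds and reference arrays. The calls were checked on simulated data.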

Additional observations from a re-analysis of the deposited data

How the results depend on the processing

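The medians and counts of the 73 genes followed the scaling. With knockdown (-0.96, 16 called), the median and count were -0.13 and 1 after quantile normalization, -0.04 and 1 after cyclic loess, and -0.13 and 1 in the authors' log2 table. They were -0.65 and 6 with the percentile over probes above background on all arrays. With normexp they were -0.95 and 13, and with the mean of all probes -0.78 and 12. All genes had 5.35%, 7.94% and 8.20% called lower in these settings, in this order. With the second brightest probe 9 were called lower, at 2-fold 35 and at 4-fold 0. Of all genes, 8.33%, 18.2% and 2.36% were called lower in that order. With the overexpression control as reference the median and count were -1.52 and 47, all lower, against 15.9% of all genes. With normal cells the median was -0.73, with 11 genes called lower and 1 higher, against 18.9% and 11.3% of all genes. With overexpression (-0.21, 0 called), the median was 0.00 after quantile normalization and in the authors' table. It reversed to 0.28 when the knockdown control was the reference and to 0.47 with normal cells, where 1 gene was called, against 16.7% of all genes. Between the controls (-0.51, 0 called), the median was -0.06 after quantile normalization and in the authors' table and -0.01 after loess. On the main scale 1 gene was past 2-fold, against 16.7% of all genes. For the overexpression control against normal cells (0.67, 2 called), the median was 0.02 after quantile normalization and in the authors' table, -0.05 after loess and 0.41 over probes above background. The count was 1 in these and with normexp, the mean of all probes, the second probe and the 4-fold threshold, and 10 at 2-fold. Of all genes, 5.35% to 21.0% were called in the settings with 1, and 30.9% at 2-fold. For the knockdown control against normal cells (0.17, 1 called), 2 were called under the first 4 scalings and at 2-fold. All genes had 13.3% to 19.2% called under those scalings and 27.8% at 2-fold. With no scaling, an alternative chosen after seeing the data, the 5 medians in this order were 0.09, 0.05, -0.20, -0.61 and -0.79. All but the middle one changed sign, and 3, 0, 0, 7 and 6 genes were called, the 3 with knockdown higher where the 16 were lower. Of all genes, 31.3%, 3.95%, 10.9%, 51.4% and 40.7% were called with no scaling. Values set by the scaling have no cause tested. No paired analysis was possible because the groups share only replicate number 1. With 1 array per group no array could be left out. The number of arrays limits the precision.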
